A study of Gossypium hirsutum with 24 samples.

Results

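The comparison described here is that of cotton leaves after 48 h of feeding by larvae of the cotton bollworm (CBW, Helicoverpa armigera) with leaves of undamaged control plants of the same time point. It was taken from the array titles, with 3 CBW arrays and 3 control arrays out of the 24 arrays of the series. Of the 23972 probe sets in the deposited table, 15615 carried values at 1 time or more, and the 14402 with values at 48 h were all used. The whole series covered 4 times of feeding (6, 12, 24 and 48 h), each with its own CBW and control plants, so that comparisons at different times shared no arrays.

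All plants were Gossypium hirsutum cv. CCRI12, an upland cotton cultivar, grown to a stage of several true leaves. CBW-damaged plants were exposed without a break to larvae of the third instar under a cover, and control plants stood under the same conditions without larvae. The labels and the methods differ in the number of larvae and in the kind of bag. Each array measured RNA from leaves pooled from 3 plants, and the 3 arrays of a group were separate treatments according to the methods. The platform was the Affymetrix Cotton GeneChip, on which a probe set is a group of short oligonucleotides for 1 transcript, and the values were linear intensities from the MAS5 algorithm. Because upland cotton is a tetraploid with near-identical gene copies, a probe set may measure several copies at once. Genes are named below by the symbol or product description paired with the probe set, or by the Gorai identifier of the matching gene model in Gossypium raimondii, a diploid relative.

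A leaf chewed by caterpillars is known to make jasmonates, oxylipins built from membrane fatty acids by lipoxygenase, allene oxide synthase, allene oxide cyclase and OPDA reductase. Jasmonates trigger the breakdown of JAZ repressors and so release transcription factors that turn on defence genes, among them protease inhibitors that impair insect digestion. Phenylalanine ammonia-lyase feeds a second system, the phenylpropanoids, which branch towards lignin and towards flavonoids, anthocyanins and condensed tannins. Cotton also makes gossypol and related sesquiterpene aldehydes, starting from farnesyl diphosphate by way of delta-cadinene synthase.

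Before any comparison, the 6 arrays were set against each other. Log2 intensities of the CBW arrays correlated with each other at r = 0.985 to 0.9949, and those of control arrays 1 and 3 at r = 0.9911. Control array 2 stood apart, with r = 0.9418 and 0.9412 with the other controls and 0.7585 to 0.7742 with the CBW arrays, whereas the other controls reached 0.8424 to 0.859 with them. It lay more than 2-fold above the mean of the other controls for 644 probe sets and more than 2-fold below for 600, while control arrays 1 and 3 were more than 2-fold apart for 102. CBW array 3 lay between CBW arrays 1 and 2 for 59.2% of probe sets, against 32.3 to 44.6% for array 3 of the other 7 groups. Where CBW arrays 1 and 2 were more than 2-fold apart (203 probe sets), array 3 was found at a median of 0.45 of the way from array 1 to array 2, with quartiles of 0.39 and 0.51. The cause of either feature was not tested. If CBW array 3 was not independent of the others, the CBW group held 2 independent arrays and the adjusted p-values are too small; counts without it are given for all probe sets, and for single genes and classes where they change a call or a count by over 1.5 times. Median intensities were 387.8 to 396.1 on the CBW arrays and 375.5 to 381.2 on the control arrays. For actin, tubulin and elongation factor probe sets named through RefSeq synonyms, 1 of 14 passed the test (an ACT7 probe set, log2 difference −0.33), against 44.9% over all probe sets. Their differences ran from −0.60 to 0.21. On a list of actin, tubulin and ubiquitin matched by product description, by contrast, 6 of 7 probe sets rose (median 1.58). Of these 7, 6 are named from a table of induced probe sets. Of the marker lists for leaf cell types, guard cells and dividing cells had no annotated probe set. For mesophyll, rubisco activase averaged 10549 on CBW arrays and 14688 on control arrays. The 1 probe set of a chlorophyll-binding protein, by contrast, rose (1.95). On a list outside the markers, 3 of 3 probe sets of photosystem and electron transport proteins rose (median 2.18). The study reported nearly all photosynthesis genes that it called during feeding as lower, so these few named probe sets do not stand for that group. Of the other marker lists, 4 of 4 phloem probe sets rose (2.39), 3 of 3 for xylem, all laccases (5.05), and 2 of 3 for trichomes and epidermis (1.46). A cellulose synthase, CelA1, was not matched to the xylem list and fell (−0.55, adjusted p = 0.0326 in the limma fit). Without control array 2 its difference was −0.36 with an adjusted p of 0.187. Most of these names come from a table of induced probe sets, which favours rises, and the part of the makeup of the tissue in the results was not tested.

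**Figure D1:**
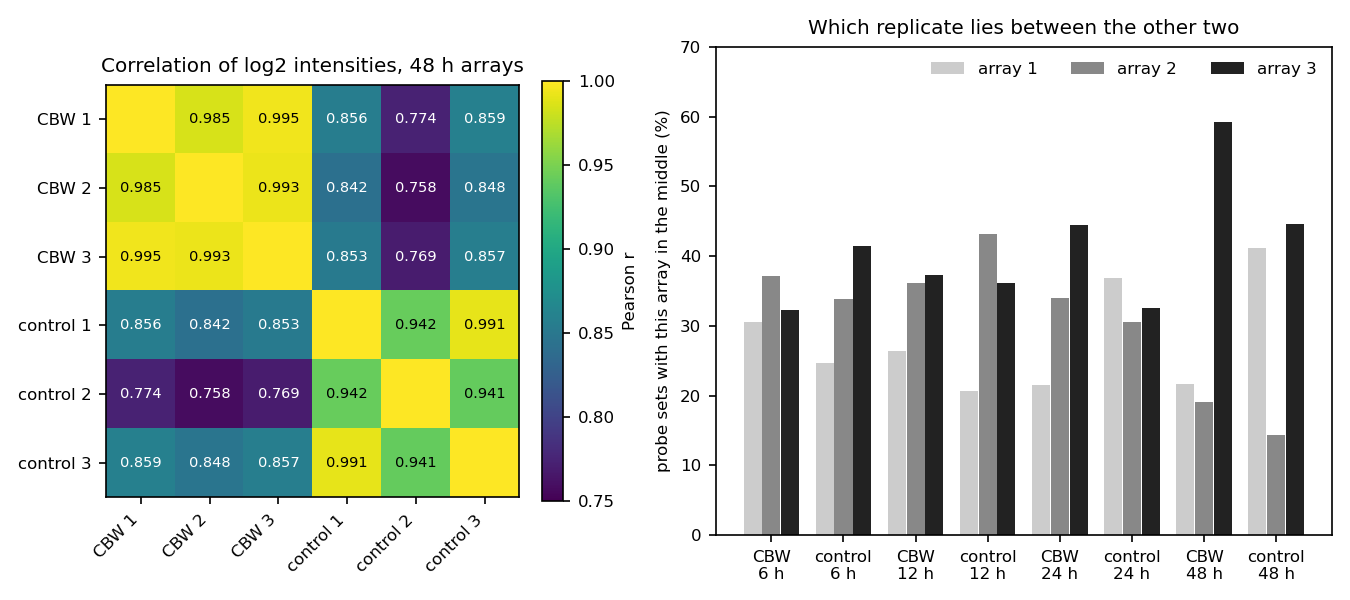
Left, Pearson's r of log2 intensity over 14402 probe sets for each pair of the 6 arrays at 48 h, CBW arrays before control arrays. Right, for each of the 8 groups of the series, the percentage of probe sets for which array 1, 2 or 3 was the middle value; control array 2 has the lowest r (0.7585 to 0.7742 with CBW arrays), and CBW array 3 is in the middle for 59.2% of probe sets.

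Feeding for 48 h was accompanied by differences over a large share of the transcripts. In the limma fit over all 24 arrays, 3219 probe sets were higher (22.4%) and 3248 lower (22.6%) in CBW-damaged leaves than in control leaves at an adjusted p (Benjamini-Hochberg) of 0.05 or less, together 44.9% of those tested. Differences are given as the log2 of CBW over control, and probe sets that passed this threshold are said to have risen or fallen. Most were modest: the median size among them was 0.84, and the median over all probe sets was 0.00. At least 4-fold differences were more frequent upward, with 638 probe sets higher (4.43%) and 323 lower (2.24%). At 16-fold or more there were 122 and 36, and at 64-fold or more 15 and 2. All 638 and 322 of the 323 showed no overlap between the CBW and control arrays, a pattern seen over all probe sets in 31.1% upward and 31.3% downward. With 3 arrays against 3, an exact permutation test of a single probe set cannot go below p = 0.1, so the adjusted p rests on the spread shared across probe sets and times.

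Without control array 2, 2605 probe sets were higher (18.1%) and 2714 lower (18.8%), and 2474 and 2560 of the original calls were kept. Without CBW array 3 the counts were 2730 and 2712, and without both arrays 2155 and 2236. In none of these fits did a called probe set change its direction. In whole leaves, fewer cells of a type and less RNA per cell cannot be told apart. Gene names were not spread evenly: 514 of the 638 probe sets with a 4-fold rise had a name, against 20 of the 323 with a 4-fold fall, since the product names came mostly from a shortened table of the study that lists induced probe sets (863 of its 867 tested here rose and 1 fell). Among 250 probe sets named independently of that table, through RefSeq synonyms, 74 rose (29.6%) and 42 fell (16.8%).

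The largest rise among named genes with clear signal belonged to a dirigent-like protein, of a family that steers the coupling of phenolic radicals into lignans and lignin-like products. Its intensity was 1273, 2001 and 1696 on the CBW arrays, against 22.6, 3.7 and 10.5 on the control arrays, a log2 difference of 7.41 (SE 0.742, adjusted p = 2.11e-06). The control values lay far under the 20th percentile of the arrays (117.1 to 120.7), where MAS5 intensities are imprecise, and with all values raised to that percentile the difference was 3.78. NAC protein 13, a member of the plant-specific NAC family of transcription factors, had 4511, 3645 and 4111 in CBW-damaged leaves and 32.9, 15.4 and 57.1 in control leaves (7.05, SE 0.795, adjusted p = 1.52e-06). Here, as for all genes picked for their size of difference, groups that do not overlap were a condition of the choice.

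A Kunitz family trypsin inhibitor, which blocks the digestive serine proteases of insects, reached 8382, 10106 and 9742 with feeding, against 247, 26.3 and 138 without (6.60, SE 0.714, adjusted p = 9.7e-07). The CBW arrays lay close together and the controls were scattered, with control array 2 the lowest; without that array the difference was 5.67. All 6 protease inhibitor probe sets with a description rose, with a median of 3.49, against 22.4% over all probe sets; all 6 are named from the table of induced probe sets, so the direction was largely given by the naming. They include a putative trypsin inhibitor with 12004, 10953 and 11438 in CBW-damaged leaves and already 3999.9, 1603 and 2264 in control leaves (2.23, SE 0.366). Class I chitinase (1.67), a carrot EP3-3-type chitinase (4.38) and an osmotin-like protein of the thaumatin family (2.32) rose as well, all of them proteins better known from responses to fungi.

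Peroxidases and laccases, secreted oxidases that cross-link phenolics and lignin in the cell wall, held some of the largest rises. The bacterial-induced class III peroxidase had 753, 1577 and 1179.8 on CBW arrays and 20.5, 12 and 15.6 on control arrays (6.16, SE 0.551, adjusted p = 1.22e-07). With all values raised to the 20th percentile its difference was 3.24. POD9 precursor had 2356, 3927 and 3211, against 35.6, 158 and 39.3 (5.68, SE 0.65). In both, CBW array 1 was the lowest and array 2 the highest of the damaged leaves. Of 13 probe sets described as class III peroxidases, 9 rose and 2 fell (1 in each fit without a CBW array or without control array 1 or 3), and all 3 described as laccases rose (3.39 to 5.79), against 22.4% higher and 22.6% lower over all probe sets. All 9 and all 3 that rose are named from the table of induced probe sets, so the counts say little about direction.

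Nitrogen metabolism formed a group of its own. Glutamine-dependent asparagine synthase 1, which makes asparagine, a main carrier of nitrogen in transport, had intensities of 1937, 5044 and 3733 in CBW-damaged leaves, against 54, 35.6 and 76.9 in control leaves (5.97, SE 0.536, adjusted p = 1.24e-07). A second probe set described as asparagine synthetase had 6271, 9154 and 8254 against 637, 141 and 829 (4.21, SE 0.606). NADP-specific glutamate dehydrogenase, which links ammonium with oxoglutarate, showed almost the same intensity on the 3 CBW arrays, 1627, 1624 and 1578, against 27.7, 14.9 and 46.1 on the control arrays (5.91, SE 0.672). Glutamate dehydrogenase (4.22) and the bifunctional lysine-ketoglutarate reductase of lysine breakdown (1.94) also rose. So did all 15 probe sets on the nitrogen list, with 8 gene models among them and a median of 4.04, against 22.4% over all probe sets. All 15 carry names from the table of induced probe sets, so the direction was largely given by the naming. Glyoxysomal malate synthase, of the glyoxylate cycle that turns fatty acid carbon into sugars, had 525, 2119 and 1302 against 15.1, 11.5 and 18.6 (6.26, SE 0.426, adjusted p = 6.1e-08). For asparagine synthase 1, malate synthase and glutamate dehydrogenase the order of the CBW arrays was the same, array 1 lowest, then 3, then 2.

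Cell wall loosening proteins moved both ways. Expansin-like B1 stood at 1794, 2055 and 1919 with feeding and at 25.9, 14.6 and 19.6 without (6.62, SE 0.495, adjusted p = 1.59e-08). A xyloglucan endotransglucosylase/hydrolase (XTH), an enzyme that cuts and rejoins the xyloglucan between cellulose fibres, had 1510.2, 1207 and 1433 against 32.3, 33.1 and 50.2 (5.19, SE 0.72). In the other direction, EXPA3D, an alpha-expansin of growing cell walls, had 869, 991 and 939 on CBW arrays and 5388, 7876 and 6219 on control arrays (−2.78, SE 0.702, adjusted p = 0.00349). XTH1 had 975, 394 and 750.5 against 3311, 2672 and 2613 (−2.11, SE 0.676, adjusted p = 0.0162), with no overlap between the groups; its adjusted p was 0.0794 without CBW array 2. FLA4, a fasciclin-like arabinogalactan protein of the cell surface, had 53.5, 89.3 and 59.9 against 179, 1193 and 157 (−2.29, SE 0.729, adjusted p = 0.0191). Its high mean in control leaves came from control array 2, and without that array the difference was −1.35 with an adjusted p of 0.105; it also missed the threshold without CBW array 1 (0.0577) or 3 (0.0525).

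Other large rises were a receptor-like protein kinase-related protein with 962, 1540.4 and 1284 against 41.9, 12.3 and 23.7 (5.75, SE 0.396), an ENTH/ANTH/VHS superfamily protein, of a type that acts in vesicle formation (5.75), and a disease resistance-responsive family protein (5.83). An additional pair known only by domain, Gorai.001G033700.1 (6144, 4817 and 5567 against 63.4, 56.2 and 109) and Gorai.001G143800.1 (5877, 4185 and 5159.9 against 104, 50.6 and 154), rose by 6.23 and 5.75 on the log2 scale.

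Among the falls, the germin-like protein gene Glp1, of a family of cell wall glycoproteins, was the deepest with a name. Its intensity was 33, 42.5 and 32.4 in CBW-damaged leaves and 1240.0, 7797 and 1013 in control leaves (−5.91, SE 0.828, adjusted p = 1.59e-05). Control array 2 was by far the brightest control, and without it the difference was −4.97 with the call kept. The stress-related gene model Gorai.002G161000.1 behaved alike, with 44.5, 29.1 and 44.1 against 1549, 6554 and 1271 (−5.93, SE 1.11, without control array 2 −5.19). Aux6 fell by 1.59 on the log2 scale, and geranyl pyrophosphate synthase, which makes the precursor of monoterpenes, had 463, 324 and 437 against 1503, 1562 and 1686 (−1.97, SE 0.24, adjusted p = 3.48e-06). Pinene synthase, a monoterpene synthase, had 61.9, 59.5 and 70.4 against 209.7, 1418 and 179 (−2.56, adjusted p = 0.0169), again with a high control array 2, and its adjusted p was 0.126 without it (difference −1.60).

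**Figure D2:**
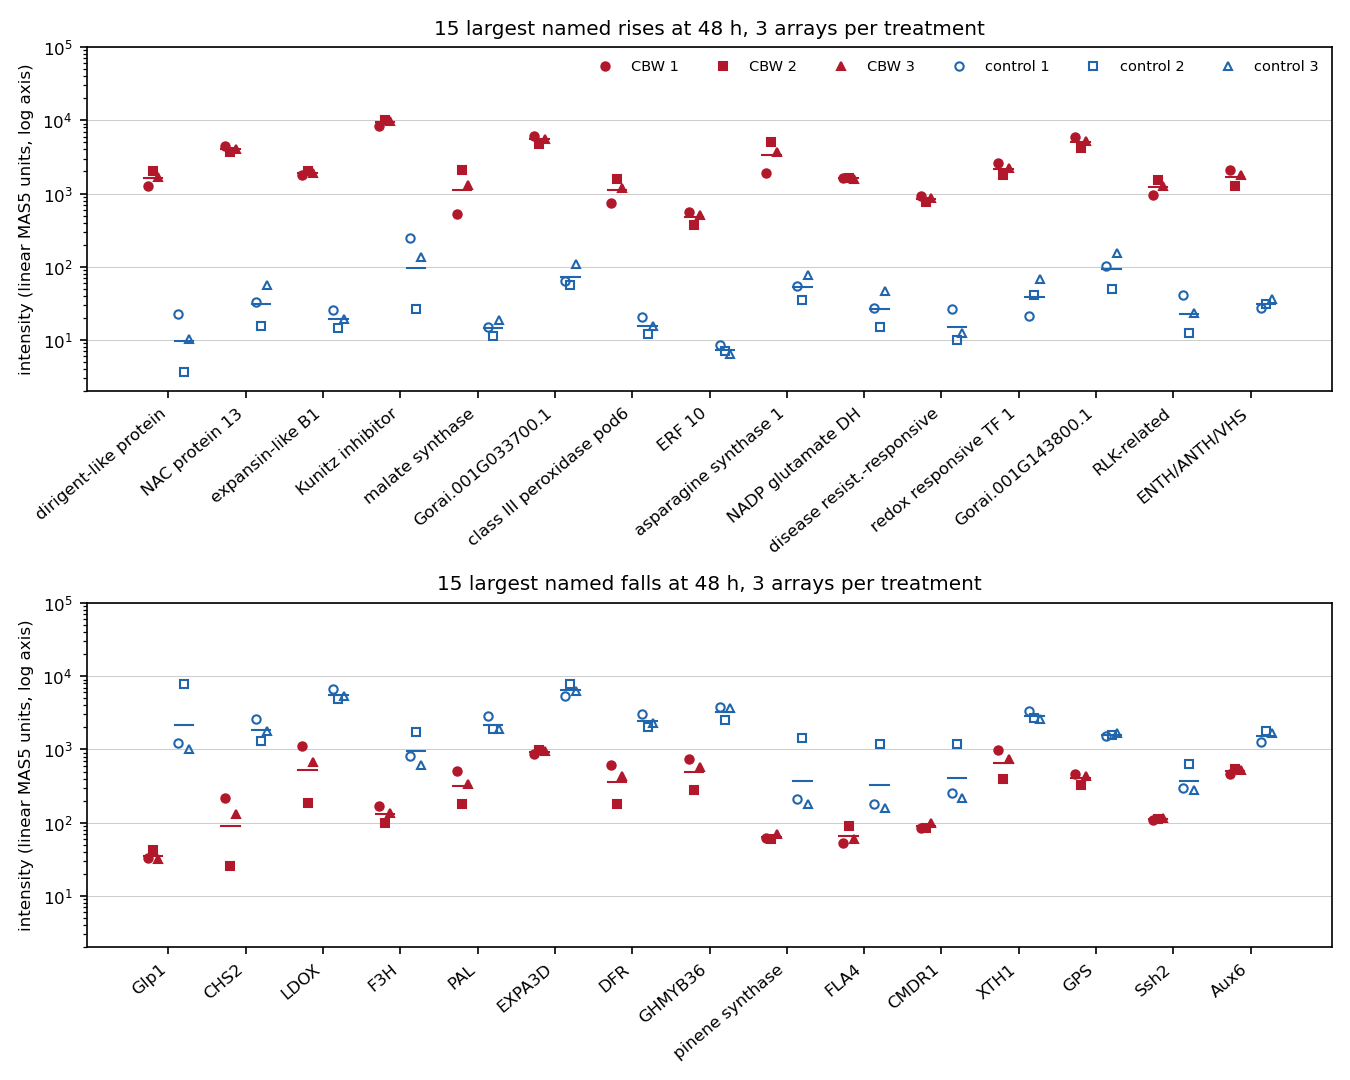
Intensity (log axis) on each array at 48 h for the 15 largest rises (upper panel) and the 15 largest falls (lower panel) among named genes, with filled red symbols for CBW arrays at the left of each gene and open blue symbols for control arrays at the right; circles, squares and triangles are arrays 1, 2 and 3 and lines are means on the log scale. The genes were chosen for groups that do not overlap; for Glp1, pinene synthase and FLA4 the square of control array 2 stands above the other controls.

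The enzymes of jasmonate synthesis were high on all 3 CBW arrays. Of 37 tested probe sets that the study's tables place in jasmonate synthesis, 31 rose and 1 fell, with a median of 1.31. The shares over all probe sets were 22.4% and 22.6%. Without control array 2 the counts were 29 and 1, and the 1 fall was lost without CBW array 1 or 3 or control array 1. Allene oxide synthase, which makes the unstable epoxide from which jasmonates derive, had 3722, 3855 and 3831 against 354, 154 and 282 (3.94, SE 0.409, adjusted p = 6.3e-07). Lipoxygenase 3, which oxygenates linolenic acid, had 6785, 5228 and 5948 against 653, 431 and 549 (3.47, SE 0.259), and allene oxide cyclase, the next enzyme, had 8272, 5746 and 7536 against 1436, 642 and 1051 (2.84, SE 0.42). For these 3 enzymes all CBW arrays were far brighter than any control array, and control array 2 was the lowest control in each. Acyl-CoA oxidase 2, of the peroxisomal chain shortening that ends the pathway, rose less, with 1056, 1743 and 1333 against 538, 575 and 518 (1.31, SE 0.196). Since the study drew up these classes on the same arrays, their counts are no independent evidence of a direction.

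All 6 probe sets described as JAZ repressors rose, but all 6 carry names from the table of induced probe sets. A JAZ1 gene model, Gorai.010G090600.1, had 3285, 2471 and 2956 with feeding and 146, 71.1 and 156 without (4.62). Another JAZ1 probe set had 5011, 4145 and 4955 against 462, 170.1 and 412 (3.88, SE 0.565), and JAZ6 and JAZ3 rose by 2.29 and 1.97. Cytochrome P450 94A1, whose family in Arabidopsis oxidises jasmonoyl-isoleucine, had 2497, 2184 and 2296 against 66.2, 40.4 and 103 (5.16, SE 0.676). In the jasmonate signalling class as a whole, however, 12 probe sets rose and 7 fell of 23, and the median was 1.03. The shares over all probe sets were 22.4% and 22.6%.

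Of the other hormones, ethylene synthesis had a clear leader. Its rate-limiting enzyme, 1-aminocyclopropane-1-carboxylate synthase, had 1704, 719.8 and 1273 on CBW arrays and 118, 127 and 121 on control arrays (3.25, SE 0.479, adjusted p = 2.67e-05). ACO1, which carries out the final step to ethylene, had 3265, 2473 and 2978 against 2163, 1070.0 and 1664 (0.88, SE 0.275, adjusted p = 0.0139), with adjusted p = 0.0979 without control array 2 and 0.0521 without CBW array 1. In the class, 8 of 14 probe sets rose and 5 fell (6 and 3 without control array 2). Without CBW array 3 and control array 2 together they were 5 and 3. In cytokinin synthesis 9 of 11 probe sets rose (median 0.89), and in cytokinin signalling 9 rose and 9 fell of 34 (−0.18; 5 falls with the floor at the 20th percentile). In abscisic acid signalling 1 of 15 was higher and 10 lower (median −0.61), and without control array 2 the 1 rise was lost and 8 falls were left. In abscisic acid synthesis 6 of 10 rose and 3 fell (1.40), with 5 and 1 without control array 2, 3 and 1 without CBW array 3 and control array 2, and 3 rises with the floor. Over all probe sets 22.4% rose and 22.6% fell.

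For salicylic acid, the hormone of defence against biotrophic pathogens, PR1-type genes were low. Gorai.004G101300.1 had 21.1, 22 and 17.5 in CBW-damaged leaves, against 265, 428 and 103 in control leaves (−3.50, adjusted p = 0.0015, without control array 2 −3.04). Gorai.004G101200.1 had 28, 32.8 and 26 against 147, 517 and 115 (−2.84, adjusted p = 0.0023, without control array 2 −2.18). All CBW values of both genes lay below the 20th percentile of the arrays, and with values raised to it neither gene passed the test. The salicylic acid signalling class counted only 6 probe sets, of which 3 rose and 3 fell; 1 fall was left with that floor, and 1 rise without CBW array 3 and control array 2. Of the 4 in its synthesis class, all phenylalanine ammonia-lyase, 3 fell, all of the gene model Gorai.002G248000.1. Only 1 of them fell without CBW array 2, and only 1 with the floor. Over all probe sets 22.4% rose and 22.6% fell.

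In auxin signalling 12 of 51 probe sets rose and 20 fell (median −0.38), against 22.4% and 22.6% over all probe sets. At 4-fold 8 were higher and 3 lower, and the falls numbered 15 without control array 2 and 13 without it and CBW array 3. Gorai.N011800.1 had 57.1, 53.6 and 68 against 642, 1596 and 642 (−3.88, SE 0.542), and Gorai.002G124000.1 had 56.2, 55.7 and 58.9 against 516, 1818 and 462 (−3.73, SE 0.614). An auxin-responsive GH3 family protein, of the enzymes that conjugate auxin or jasmonate to amino acids, had 1226, 1409 and 1244 with feeding and 64.9, 128 and 69.1 without (3.96, SE 0.385, adjusted p = 3.09e-07). The CBW arrays were tight in all 3 genes, whereas control array 2 was the highest control in each.

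Apart from the 4 probe sets of salicylic acid synthesis, the flavonoid class had the lowest median of the metabolic and hormone classes. Of 35 tested probe sets (36 listed, from 21 gene models), 28 fell and 2 rose in CBW-damaged leaves, 19 of the falls reached 4-fold, and the median difference was −2.22, against 22.6% of probe sets called lower and a median of 0.00 over all those tested. The counts without control array 2 were 28 and 3, without CBW array 3 and control array 2 together 25 and 1, and without CBW array 2 they were 19 and 2; without CBW array 1 or 3, 1 rise was left. With the floor at the 20th percentile 22 fell and the median was −1.45, and without the dimmest 20 percent of probe sets 20 fell. The study drew up this class on these arrays, so its counts are no independent evidence of a direction. The falls included the entry enzyme and some later enzymes of the pathway. Chalcone synthase CHS2, its entry enzyme, had 219, 26 and 131 against 2569, 1306 and 1814 (−4.33, SE 1.08, adjusted p = 0.00312). Naringenin 3-dioxygenase (F3H), which hydroxylates the flavanone ring, had 170.2, 100.2 and 136 against 807, 1706 and 613 (−2.83, SE 0.699, adjusted p = 0.00297). Both genes were lower on every CBW array than on any control array.

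Downstream enzymes gave the same picture with brighter signals. Dihydroflavonol reductase (DFR), at the branch to anthocyanins and tannins, had 616, 181 and 432 in CBW-damaged leaves and 3043, 2013 and 2331 in control leaves (−2.74, SE 0.728, adjusted p = 0.00507), and all 3 of its probe sets fell. Leucoanthocyanidin dioxygenase (LDOX), which makes anthocyanidins, had 1108, 183 and 681 against 6673, 4823 and 5346 (−3.43, SE 1.04, adjusted p = 0.0121). The groups were fully apart, yet the LDOX call depended on CBW array 2: without it the difference was −2.68 and the adjusted p 0.0727. Among members known by gene model only, Gorai.009G175500.1 had 823, 258 and 599 against 6528, 4862 and 6217 (−3.53, SE 0.654, adjusted p = 0.000263) and Gorai.012G014600.1 had 541, 209.7 and 385 against 4692, 3688 and 3579 (−3.49, SE 0.729). The 2 that rose were Gorai.003G165800.1 (2.65) and cytochrome P450 DDWF1 (1.00), and for DDWF1 the difference was 0.55 with an adjusted p of 0.21 without control array 2.

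The CBW arrays kept a common order within this class. Array 2 was the lowest in 23 of the 28 probe sets that fell (82.1%), and in 22 of them array 1 was also the highest, so that array 3 lay between. Over all probe sets that fell, array 2 was the lowest in 52.2%, and over all tested in 40.8%. Whether this order reflects the plants in the pools or the handling of the arrays was not tested.

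In the shared upstream part of the phenylpropanoid pathway, 1 gene of the first enzyme fell and another did not pass the test. Phenylalanine ammonia-lyase Gorai.002G248000.1, which opens the pathway, had 509.6, 182 and 336 against 2874, 1891 and 1926 (−2.80, SE 0.846, adjusted p = 0.0116), with −2.40 and an adjusted p of 0.0562 without CBW array 2, while another gene of the enzyme, Gorai.009G416300.1, had a difference of 0.66 with an adjusted p of 0.23. In the phenylpropanoid class of the study 24 of 45 probe sets fell and 15 rose, against 22.6% and 22.4% over all probe sets. At 4-fold these were 11 and 1, against 2.24% and 4.43%. Without CBW array 3 and control array 2 together 17 fell and 7 rose. The study drew up this class, too, on these arrays. Enzymes on the way to lignin were among the rises. On a list of such enzymes by description 5 of 9 probe sets rose and 3 fell (1 without CBW array 2). The shares over all probe sets were 22.4% and 22.6%, and 5 of the 9 are named from the table of induced probe sets. Caffeoyl-CoA 3-O-methyltransferase, which methylates lignin precursors, had 1926, 2209 and 2057 with feeding and 247, 145 and 227 without (3.36, SE 0.303, adjusted p = 1.29e-07). Caffeic acid 3-O-methyltransferase 1 had 1996, 2565 and 2235 against 200.4, 88.6 and 104 (4.20, SE 0.545), and ferulic acid 5-hydroxylase 1, of the branch to syringyl lignin, had 1526, 1793 and 1700.1 against 232, 160.3 and 196 (3.10, SE 0.347). The CBW arrays of these 3 methylating and hydroxylating enzymes were close together and did not overlap with the controls.

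Terpenoid precursors, the isoprene units, come from a cytosolic and a plastid route, whose genes are described in turn. Of the 6 probe sets on the plastid (MEP) list 3 fell (2 without control array 2), against 22.6% over all probe sets, including 1-deoxy-D-xylulose 5-phosphate synthase (DXS), its first enzyme, with 2597, 3023 and 2799 against 4098, 5339 and 4396 (−0.71, SE 0.243, adjusted p = 0.0232); the DXS call was lost without control array 2 (0.0933) and without CBW array 1 (0.07) or 3 (0.054). On the list of the cytosolic mevalonate route and sesquiterpene synthesis 10 of 17 rose and 1 fell, against 22.4% and 22.6% over all probe sets; 5 of the 17 have names from the table of induced probe sets. There, hydroxymethylglutaryl-CoA synthase had 1413, 1517 and 1438 against 252, 192 and 183 (2.81, SE 0.353, adjusted p = 4.75e-06). A hydroxymethylglutaryl-CoA reductase, the step that limits the flux, had 1427, 1278 and 1393 against 453, 230.3 and 492 (1.88, SE 0.305). The 4 probe sets of another reductase gene, Gorai.005G215800.1, disagreed, with differences from −2.01 to 0.85. Mevalonate kinase, phosphomevalonate kinase, the mevalonate diphosphate decarboxylase and isopentenyl diphosphate isomerase followed with smaller rises of 0.69 to 1.27. Farnesyl pyrophosphate synthase Gorai.009G184900.1 did not: none of its 3 probe sets passed the test (−0.22 to 0.12).

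Delta-cadinene synthase, which commits farnesyl diphosphate to gossypol-type compounds, rose in more than 1 form. One gene, Gorai.009G428400.1, had 1332, 1261 and 920.4 in CBW-damaged leaves, against 73.4, 32.6 and 14.2 in control leaves (5.16, SE 0.702, adjusted p = 1.15e-05). Isozyme C2 had 1915, 1821 and 1845 against 364, 668 and 133 (2.54, SE 0.619, adjusted p = 0.00269). The CBW values of the isozyme were tight, and its control values were scattered without reaching them. A short chain alcohol dehydrogenase had 7774, 8262 and 7938 against 2191, 351 and 1253 (3.02, SE 0.728). In the whole terpenoid class 20 of 52 probe sets rose and 15 fell, against 22.4% and 22.6% over all probe sets, and the median was 0.25.

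**Figure D3:**
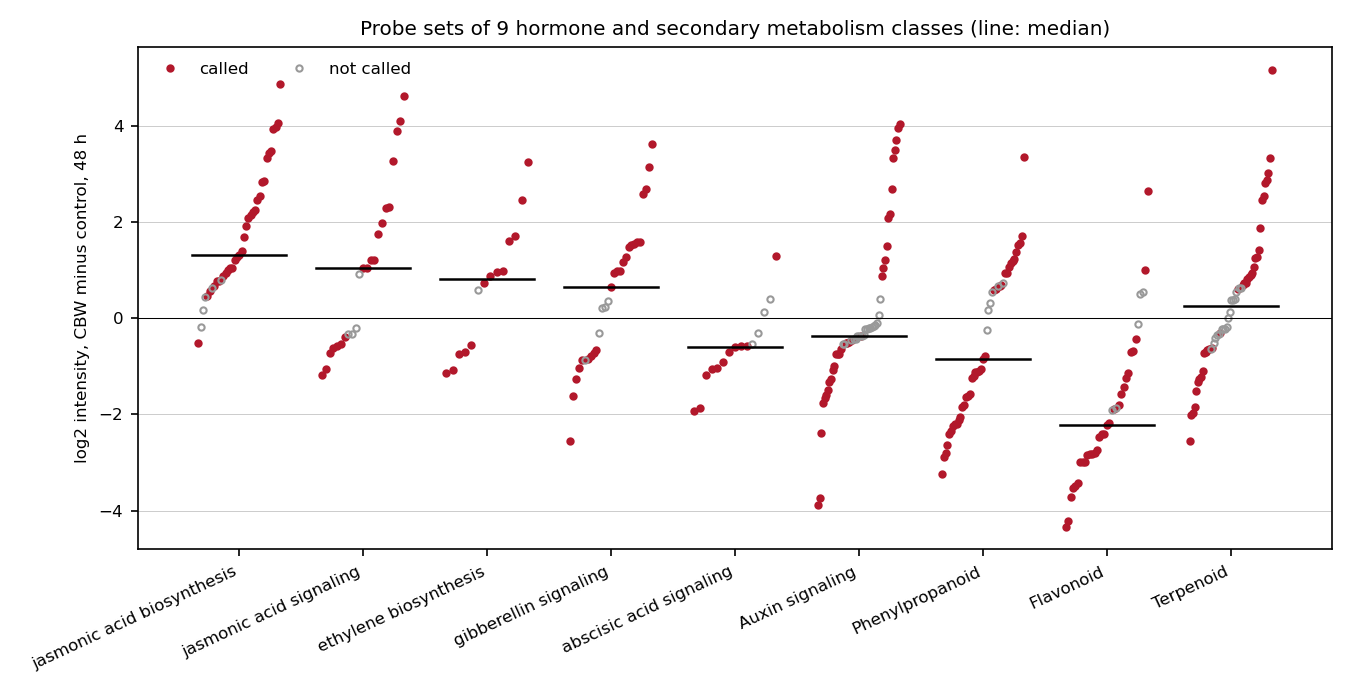
Log2 difference (CBW minus control) at 48 h of each probe set in 9 classes of metabolism and hormones; filled red points passed the test, open grey points did not, and lines mark the median. Flavonoid probe sets have the lowest median of the 9 (−2.22, 28 of 35 lower) and jasmonate synthesis probe sets lie mostly above 0 (median 1.31, 31 of 37 higher).

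Transcription factor families differed in the share of members that rose. Of 50 WRKY probe sets, a plant family tied to defence genes, 41 rose and 2 fell (median 1.93), and without control array 2 the counts were 39 and 4. Of 65 ERF probe sets 52 rose and 7 fell (1.52), and of 28 NAC probe sets 19 rose and 1 fell (1.64), against 22.4% higher and 22.6% lower over all probe sets. The brightest WRKY example, the transcription factor WRKY1, had 7711, 7314 and 7728 against 1973, 621 and 1665 (2.58, SE 0.413). Ethylene-responsive transcription factor 10 had 556, 368 and 517 against 8.53, 7.14 and 6.44 (6.01, SE 0.484, adjusted p = 2.87e-07), and redox responsive transcription factor 1, also of the AP2/ERF type, had 2596, 1765 and 2227 against 21.5, 40.7 and 67.7 (5.80, SE 0.822). The salt tolerance zinc finger, a C2H2 factor, had 6803, 5646 and 6656 with feeding and 312, 71.1 and 312 without (5.06, SE 0.843), in a family with 19 rises and 7 falls among 31 (4 falls without CBW array 3 and control array 2). Most ERF, WRKY and NAC probe sets that rose carry names from the table of induced probe sets, and the family lists were drawn up on these arrays.

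Other families had more falls than rises, where 22.4% of all probe sets rose and 22.6% fell. These family lists, too, hold only probe sets that the study chose on these arrays. Of 16 HD-ZIP probe sets, homeodomain factors of leaf development, 12 fell and 1 rose (median −1.10), and without control array 2 the counts were 10 and 1. The falls numbered 7 with the floor at the 20th percentile and 6 without the dimmest 20 percent of probe sets. Gorai.005G189800.1 was a bright example, with 455, 444 and 482 in CBW-damaged leaves and 1509.6, 1325 and 1474 in control leaves (−1.64, SE 0.145, adjusted p = 1.06e-07). In the CONSTANS-like family, zinc finger proteins that include regulators of light and day-length responses, 7 of 10 fell. Gorai.013G246000.1 had 221, 177 and 213 against 1690.3, 1769 and 1904 (−3.14, SE 0.301, adjusted p = 2.67e-07). The groups stood fully apart in both genes, and control array 2 lay near the other controls. SBP factors, regulators of the passage between growth phases, fell in 6 of 7 cases and rose in 1 (median −0.95), but only 2 fell with the floor or without the dimmest 20 percent of probe sets, and the median with the floor was −0.00. TCP factors, which act on cell division in leaves, fell in 5 of 10 (3 without CBW array 1, without CBW array 2 or without control array 3). MYB-related factors fell in 7 of 12 (4 falls without the dimmest 20 percent of probe sets). The single calls against the trend in the NAC, HD-ZIP and SBP families were lost without at least 1 array, for NAC without CBW array 2 or 3 or control array 1 or 3, for HD-ZIP without control array 1 and for SBP without CBW array 1 or 3 or control array 3.

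The large MYB and bHLH families were split, on lists that the study drew up on these arrays. For comparison, 22.4% of all probe sets rose and 22.6% fell. Of 36 MYB probe sets 17 rose and 16 fell (median 0.16), and 9 rose without the dimmest 20 percent of probe sets. Myb domain protein 2 had 771, 353 and 627 on CBW arrays and 28.9, 16.1 and 23.1 on control arrays (4.65, SE 0.38), and Myb domain protein 77 had 1638, 1549.8 and 1549 against 254, 117 and 242 (3.03, SE 0.298). GHMYB36 had 749, 276 and 569.7 against 3830.5, 2501 and 3628 (−2.74, SE 0.535, adjusted p = 0.000434). GHMYB36 showed the CBW array order of the flavonoid genes, array 1 highest and array 2 lowest. Of 37 bHLH probe sets 16 rose and 11 fell. The bHLH falls numbered 7 with the floor at the 20th percentile and 5 without the dimmest 20 percent of probe sets.

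**Figure D4:**
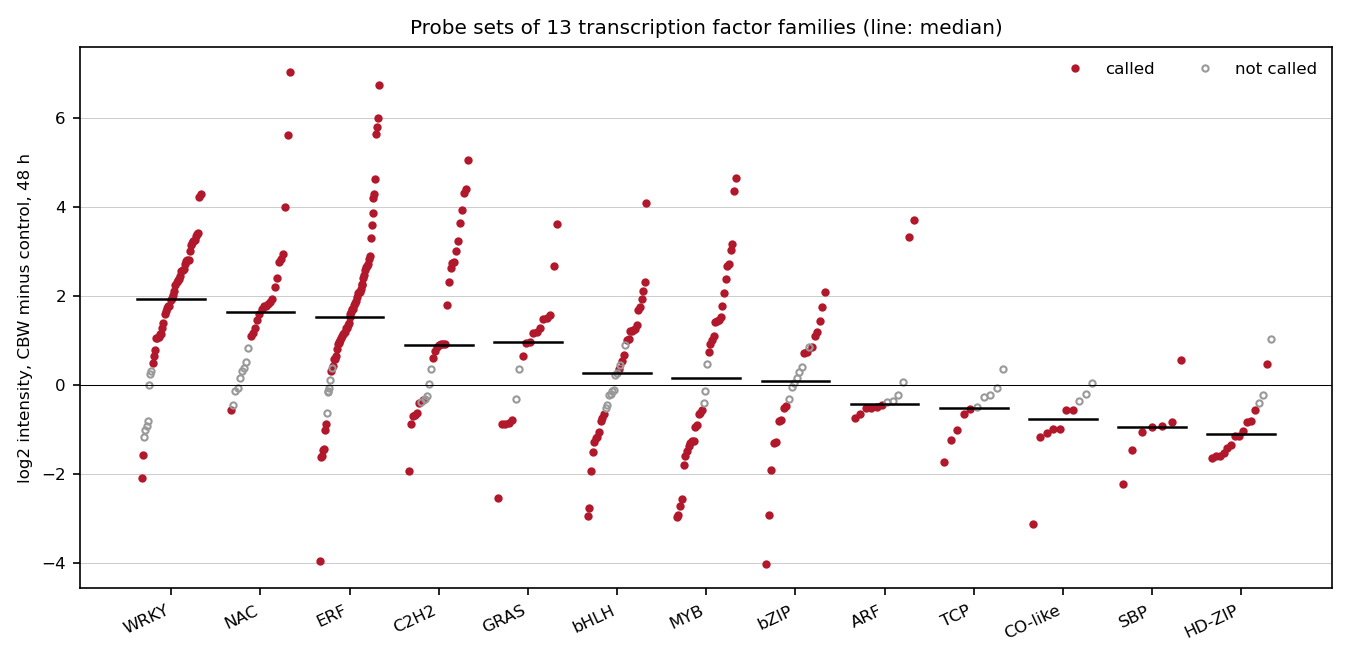
Log2 difference (CBW minus control) at 48 h of each probe set in 13 transcription factor families; filled red points passed the test, open grey points did not, and lines mark the median. WRKY (1.93), NAC (1.64) and ERF (1.52) have the highest medians among the families named here and HD-ZIP (−1.10) the lowest.

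The response at 48 h was set against that at each earlier time. The difference of the feeding response between times was tested as an interaction in the same fit, and 105 of 14071 probe sets passed for 48 h against 24 h (0.746%), 1330 of 13729 for 48 h against 12 h (9.69%) and 4863 of 13836 for 48 h against 6 h (35.1%). As shares of all probe sets tested, the response was more positive at 48 h than at 24 h for 54 (0.384%) and more negative for 51 (0.362%). Against 12 h these were 774 (5.64%) and 556 (4.05%), and against 6 h 3242 (23.4%) and 1621 (11.7%). The first of these counts was unstable, and lay between 27 (without control array 1 of 48 h) and 187 (without control array 2 of 48 h) when single arrays were left out. The second was 702 without CBW array 3 of 48 h, and 394 without that array and control array 2 of 48 h. Few calls do not show that the responses at 48 and 24 h were equal.

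Flavonoid genes stood out in the comparison with the earliest time. Their median difference was 2.04 at 6 h, near 0 at 12 h (−0.00), 0.20 after 24 h of feeding and −2.22 at 48 h. For 29 of the 34 probe sets with values at both times the response at 48 h differed from that at 6 h. Of these, 24 moved toward lower values, and over all probe sets 35.1% differed in either direction. The class was drawn up on these arrays, so its share is no independent evidence of a change. For CHS2 the differences at 6, 12, 24 and 48 h were 4.29, 1.27, 0.97 and −4.33 (48 h minus 6 h, −8.62, adjusted p = 0.0005). LDOX was at 3.36 at 6 h and −3.43 at 48 h (difference −6.78, adjusted p = 0.0022), and phenylalanine ammonia-lyase Gorai.002G248000.1 at 3.09 and −2.80 (−5.89, adjusted p = 0.0014). For CHS2 the change between 24 and 48 h did not pass the test (−5.31, adjusted p = 0.12). The log2 change of CHS2 between 24 and 48 h was −3.79 in CBW-damaged leaves and 1.52 in control leaves, so that both sides entered the difference.

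Some transcripts with large rises at 48 h differed less from control leaves at 6 h. The Kunitz family trypsin inhibitor showed differences of 0.76, 4.87, 5.93 and 6.60 at 6, 12, 24 and 48 h (48 h minus 6 h, 5.85, adjusted p = 0.00043). Asparagine synthase 1 had −0.47, 6.34, 4.68 and 5.97 at these times (48 h minus 6 h, 6.44, adjusted p = 1.8e-05), and delta-cadinene synthase Gorai.009G428400.1 had 0.97, 4.67, 6.73 and 5.16 at the 4 times (48 h minus 6 h, 4.19, adjusted p = 0.0038). In each of these the response was already large at 12 h. Copper amine oxidase, an apoplastic enzyme that makes hydrogen peroxide from polyamines, had −1.05 at 6 h and 1.99 at 48 h (3.04, adjusted p = 2.6e-06).

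**Figure D5:**
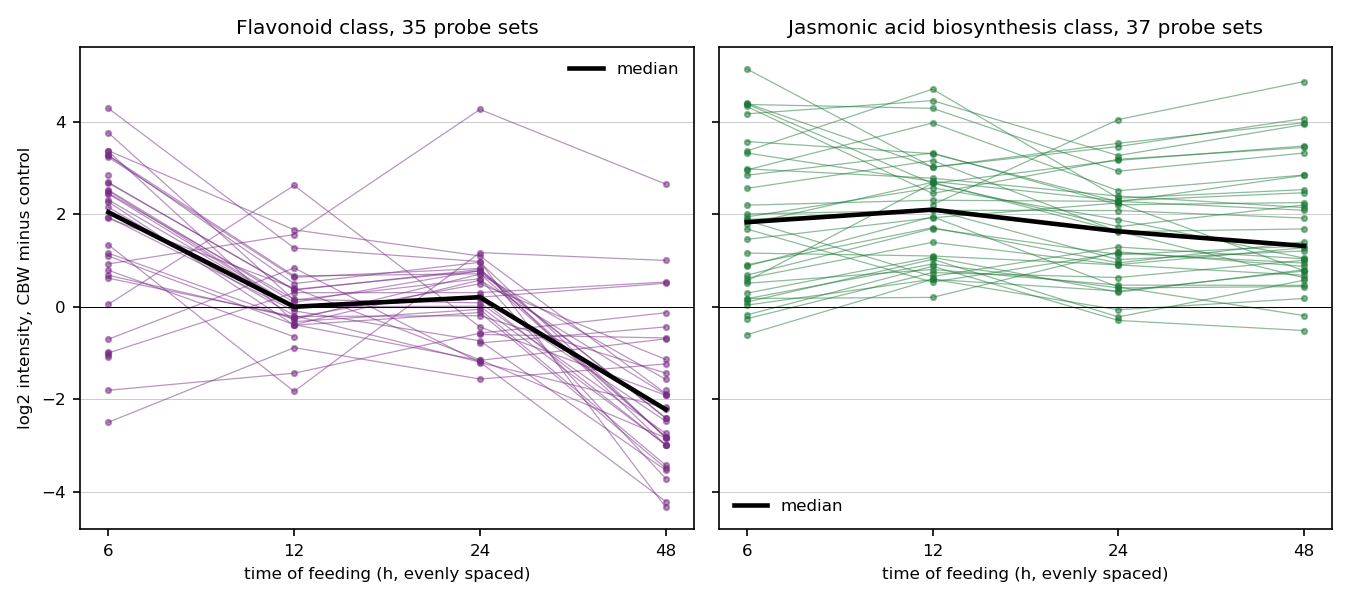
Log2 difference (CBW minus control) at 6, 12, 24 and 48 h of 35 flavonoid probe sets (left) and 37 jasmonate synthesis probe sets (right), 1 thin line each, with the median in black; times are evenly spaced on the axis. The flavonoid median is 2.04 at 6 h and −2.22 at 48 h, whereas the jasmonate median is 1.82 at 6 h and 1.31 at 48 h.

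Among the calls for 48 h against 24 h were 5 of 15 probe sets of ethylene signalling, 6 of 64 ERF and 4 of 16 HD-ZIP. There were also 3 of 33 flavonoid and 7 of 149 stress-related probe sets, against 0.746% over all probe sets. These classes share members and are shown for having calls. The study drew them up on these arrays, so the shares are no independent evidence of a concentration. NAC (0 of 28), MYB (0 of 35) and gibberellin signalling (0 of 28) had none, and no class was tested. Gorai.006G260300.1, an ERF gene model, had 998, 708 and 844 on CBW arrays of 48 h, against 2745, 2114 and 2875 on control arrays, a fall by 1.60 on the log2 scale after a rise of 1.58 at 24 h (difference −3.18, adjusted p = 1.3e-06). Its 4 probe sets all passed the test of the difference. Gorai.008G143100.1, of the ethylene signalling class, had 155, 207 and 189 against 317, 243 and 335 (−0.70 at 48 h and 2.07 at 24 h, difference −2.77, adjusted p = 7.8e-07). For the ERF gene model the log2 change between 24 and 48 h was −2.03 in CBW-damaged leaves and 1.15 in control leaves.

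A further 3 ethylene or ERF gene models had differences at 48 h that did not pass the test, after rises at 24 h. Gorai.005G047900.1 had 672, 867 and 763 with feeding and 1042, 707 and 1071 without, with overlapping arrays (−0.28 at 48 h, 2.29 at 24 h, difference −2.56, adjusted p = 0.00052). Gorai.006G247800.1 (difference −2.16, adjusted p = 0.00054) and Gorai.011G193600.1 (−2.03, adjusted p = 0.0011) were alike. Of the 16 genes named for this difference, these 5 were the ones whose call was kept without CBW array 3, and all 16 were kept without control array 2. Over all alternatives, 214 of 320 combinations of these 16 genes with a setting kept the call and 106 lost it. Gorai.010G008900.1, a flavonoid gene model, had 2089, 1066 and 1713 against 5227, 4109 and 4658 (−1.57 at 48 h, 0.70 at 24 h, difference −2.27, adjusted p = 0.024). Threonine aldolase 1, which breaks threonine down to glycine, had 2638, 3700.4 and 3155 against 363, 340.1 and 262, a rise of 3.30 at 48 h beside 5.02 at 24 h (difference −1.72, adjusted p = 0.026).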

How the data were processed

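Leaf RNA of CBW-damaged and control cotton plants was hybridised by the submitters to the Affymetrix Cotton GeneChip, 1 array for each pool of leaves from 3 plants. The deposited values are linear intensities that the authors computed with MAS5, per the labels; the version and the target of the scaling are not given in the sources used here. At each time a probe set is either filled for the 6 arrays or blank for them; how blanks were set is likewise not stated, and 14402 were tested at 48 h. The depth of an array has no count behind it, and precision is limited by the 3 arrays in each group. P-values measure the spread between these pools.

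Intensities were put on the log2 scale, and no further normalization was applied. A linear model with 1 mean for each of the 8 groups was fitted over the 24 arrays with limma 3.58.1 in R 4.3.3 (lmFit, contrasts.fit, eBayes; 2-sided; Benjamini-Hochberg over the probe sets of a contrast; called at 0.05). Probe sets with values at all times had 16 residual degrees of freedom (13341 at 48 h), and the fewest had 4. Differences between times were interaction contrasts. Tables were handled with Python 3.11.15, pandas 2.3.3 and numpy 2.4.6, and plots were drawn with matplotlib 3.10.9. The fit was tested on simulated data with known changes. No per-array column of the deposited table was left unused (0), and the fold changes and q-values in the study's own tables were not used.

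Names came from RefSeq synonyms and from product descriptions and class lists in the study's tables, 1 of which is shortened here. The members and lists were chosen with earlier results of these data known. For each gene the brightest probe set was taken. The text draws on the 15 largest rises and 15 largest falls among called genes whose arrays did not overlap, that had a description and whose brighter treatment reached the array median of 385, on up to 4 such members of each list, and on the 8 genes each way with the largest difference from 24 h. The transcription factor families were given the same limits after the values were seen. Named outside this rule, with values known, were the PR1-type genes, the JAZ1 model Gorai.010G090600.1, DDWF1, Gorai.003G165800.1, rubisco activase, the ACT7 probe set, CelA1, farnesyl pyrophosphate synthase and further probe sets of enzymes already listed.

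Alternatives were quantile normalization, median centring, a floor at the 20th percentile of each array, leaving out the dimmest 20 percent of probe sets, the 48 h arrays alone (48 and 24 h for the difference), a replicate block, an intensity trend with a robust prior, and leaving out each array. Leaving out CBW array 3 and control array 2 of 48 h together was added after seeing the data.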

Additional observations from a re-analysis of the deposited data

Results flagged for a closer look

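The feeding response was tested for a difference between 48 h and each earlier time in the limma interaction contrasts, and 105 probe sets passed against 24 h, 1330 against 12 h and 4863 against 6 h. Among 34 flavonoid probe sets, a class drawn up on these arrays, 29 passed against 6 h, and over all probe sets 35.1% did. Groups of 3 arrays were too small for a test of single outlying arrays. The 16 genes named for a difference between 48 and 24 h were singled out because that difference itself passed the test.

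Responses lower at 48 h than at 24 h (log2, 48 h minus 24 h) were those of Gorai.006G260300.1 (−3.18), Gorai.008G143100.1 (−2.77), Gorai.005G047900.1 (−2.56), Gorai.010G008900.1 (−2.27), Gorai.006G247800.1 (−2.16), Gorai.011G193600.1 (−2.03), Gorai.011G086300.1 (−1.85) and threonine aldolase 1 (−1.72). Gorai.011G086300.1, a WRKY gene model, had a difference of 0.79 at 48 h and 2.64 at 24 h.

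Responses higher at 48 h were those of CLP (2.04), Gorai.009G209300.1 (1.71), the B3 family protein related to auxin-responsive factors (1.62), Gorai.007G291700.1 (1.52), copper amine oxidase (1.37), Gorai.007G029200.1 (1.29), Gorai.008G227400.1 (1.24) and Gorai.008G233200.1 (1.24). For CLP the difference was 0.31 at 48 h and −1.72 at 24 h, with overlapping arrays at 48 h. Gorai.009G209300.1 had 674, 648 and 666 on CBW arrays of 48 h and 219, 301 and 204 on control arrays (1.48, against −0.23 at 24 h), and the B3 family protein had 545, 468 and 518 against 35.5, 32.7 and 51.3 (3.70, against 2.08 at 24 h). The HD-ZIP gene models Gorai.007G029200.1 and Gorai.008G233200.1 were lower in CBW-damaged leaves at both times, by less at 48 h (−1.52 and −1.04) than at 24 h (−2.82 and −2.28).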

How the results depend on the processing

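No alternative reversed the direction of a named gene: of 3187 combinations of the 228 genes with a setting, 3098 kept their side of the threshold at 48 h and 89 lost it. The counts higher and lower at 48 h (3219 and 3248) were 2887 and 3721 with quantile normalization, 2843 and 3746 with median centring, and lay between 2605 and 3040 and between 2618 and 2978 when single arrays were left out. The 4-fold counts (638 and 323) were 588 to 692 and 259 to 379 without single arrays; with the floor at the 20th percentile they were 425 and 160, since dim values were raised, and without the dimmest 20 percent of probe sets 206 probe sets were at least 4-fold lower, since fewer were tested. The 105 calls for 48 h against 24 h were 210 with the floor (88 shared), 234 with the arrays of these times alone (86 shared), 208 with the replicate block (86 shared) and 67 without CBW array 3 and control array 2 of 48 h. They ran from 27 to 187 when single arrays were left out: 61, 31 and 30 without CBW array 1, 2 and 3 of 48 h, 27, 187 and 41 without control array 1, 2 and 3 of 48 h, 28 and 57 without CBW array 1 and 3 of 24 h, and 29 without control array 2 of 24 h. The 1330 calls against 12 h were 394 without CBW array 3 and control array 2 of 48 h, and 702 to 1468 without single arrays; those against 6 h were 3766 to 5121. Apart from fewer arrays or probe sets, the cause of these changes was not tested. Of 320 combinations of the 16 genes named for the difference from 24 h with a setting, 106 lost the call. With the floor only 51 of 105 medians of gene lists moved by less than the spread between arrays, and the others moved by more. Among the latter, the jasmonate synthesis class went from 1.31 to 1.03, the flavonoid class from −2.22 to −1.45 and the phenylpropanoid class from −0.85 to −0.155. Same-numbered CBW and control arrays of 48 h did not deviate together (r = −0.038, −0.064 and −0.012), while those of 12 h (0.518, 0.286 and 0.191) and 24 h (0.236, 0.478 and 0.099) did in part and those of 6 h (−0.145, −0.187 and 0.218) did not, so the numbers were not taken as pairs; with the block 1431 probe sets passed against 12 h; with the replicate block 3380 probe sets were higher and 3446 lower, and 226 of 228 named genes kept their call. Intensities under the 20th percentile carry little information, which leaves the size of the largest differences uncertain. With the floor NAC protein 13 had 5.10, expansin-like B1 4.02 and Glp1 −4.18. Other large rises shrank more: ethylene-responsive transcription factor 10 from 6.01 to 2.00 and the disease resistance-responsive family protein from 5.83 to 2.85. The bacterial-induced class III peroxidase went from 6.16 to 3.24 and malate synthase from 6.26 to 3.26.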
